A study of Mus musculus with 4 samples.

Results

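The RNA polymerase II (Pol II) list of activated CD4 T cells was taken whole: every peak called in the Pol II ChIP library over whole cell extract, 17632 of the 31712 peaks in the 3 deposited lists. The other lists, with 9011 and 5069 peaks, came from precipitation of FLAG-tagged FoxP3 and serve here only as background. All cultures were primary CD4+ Tconv (conventional T) cells from lymph nodes of C57BL/6 mice aged 6 to 8 weeks. They were stimulated with anti-CD3/CD28 beads at 1 bead per cell and grown with 20 U/ml of IL-2. How many animals were pooled is not in the labels. The Pol II library carries the transduced factors FLAG-FoxP3 + GATA1 in its title and characteristics, but its description names only activated CD4 cells and Pol II. The labels therefore conflict on whether these cells carried the factors. The FLAG lists came from cells with FLAG-FoxP3 + GATA1 and from cells with FLAG-FoxP3 alone, and the extract is labelled as having no transduced factor. There was 1 library on each side, so no value below has a replicate check, and read depth is unknown. By the series' design text the Pol II library served to mark transcription start sites.

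Pol II transcribes the protein-coding genes and many noncoding ones. At many active genes it gathers shortly downstream of the start site, where it pauses before elongation, and it is then found more thinly along the gene body. The antibody used was raised against the N terminus of the largest subunit, so it is expected to detect the enzyme whether or not its C-terminal tail is phosphorylated. ChIP-seq peaks are intervals in which reads of the precipitate exceed those of the extract, and the deposited score ranks peaks within a list.

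Pol II peaks were short, with a sharp mode of width just below 600 bp. They covered 12.2 Mb in all. The median width was 608 bp (95% interval 605 to 611), with quartiles of 568 and 765 bp and a range of 208 to 6457 bp. Widths of at least 550 and below 600 bp made up 30.1% of the list (29.5 to 30.8), and the commonest single width, 598 bp, was shared by 193 peaks. Long peaks were few: 1527 exceeded 1 kb, or 8.66% (8.25 to 9.08), 182 exceeded 1.5 kb, 41 exceeded 2 kb and 10 exceeded 3 kb. At the other end 727 narrow peaks (4.12%) were at most 450 bp wide.

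Scores were concentrated at the low end. The median score was 117.6 (116.6 to 118.6), with quartiles of 90.2 and 168.9. Scores below 100 made up 35.0% of the list, and the lowest was 50.02. At the upper end 1195 peaks scored at least 300, 271 at least 500 and 58 at least 1000. A total of 24 peaks tied at 3100, the top value, and the next score was 2762. No label or header explains this ceiling, so the tied peaks have no order among themselves.

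Width stayed flat over the lower deciles of the score and then rose. In the 5 lowest deciles the median width was 588, 585, 586, 590 and 592 bp. In the 5 highest it was 611, 649, 727, 838 and 1031 bp. The share of peaks over 1 kb was 0.397% in the lowest decile and 53.9% in the highest. Over the 17632 peaks the Spearman correlation of width and score was 0.463 and the Pearson correlation 0.467. Both values of a peak come from the same reads and the same peak call, so the relation is a description of the list.

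**Figure D1:**
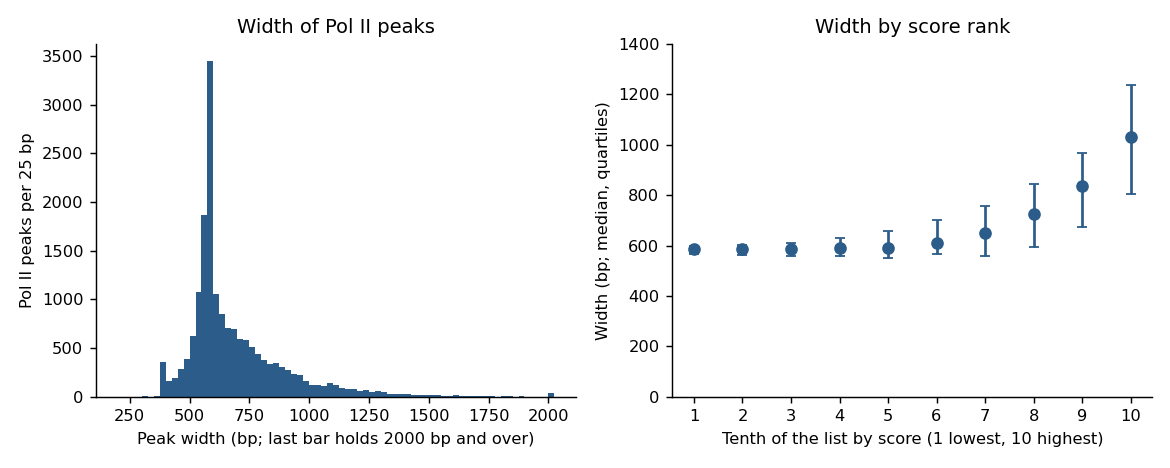
Left, number of Pol II peaks per 25 bp of width, with widths of 2000 bp and over in the last bar; right, median width with quartiles in each decile of score, 1 being the lowest. The tallest bars sit just below 600 bp, with a small step of narrow peaks below 450 bp, and the median stays between 585 and 592 bp through decile 5 before it reaches 1031 bp in decile 10.

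The narrow Pol II peaks differed from the bulk in more than length. The 727 peaks of at most 450 bp had a median score of 152.7, against 91.0 for the 5304 peaks over 550 and up to 600 bp, the commonest class. The median score then climbed with width to 431.7 among the 182 peaks over 1.5 kb, so that the narrowest class scored above the classes between 450 and 800 bp. The narrow peaks were also isolated. Of them 80.6% (77.6 to 83.3) had no other Pol II peak within the gap later used to join clusters, about 12 kb, against 60.8% (59.4 to 62.1) in the commonest class. Their median gap to the nearest Pol II peak was 56.4 kb (49.3 to 63.5), against 21.2 kb (19.7 to 22.4) there.

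Narrow Pol II peaks were also the class most often met by a FLAG peak. A FLAG peak of either list, sharing at least 1 bp, was present at 67.3% (63.8 to 70.6) of them. The share was 18.2% (17.2 to 19.3) at 550 to 600 bp and rose again to 53.3% (46.1 to 60.4) above 1.5 kb. The same order of the narrow class and the 550 to 600 bp class was seen within a band of scores. Among peaks scoring 100 to 150, the share was 55.9% (49.9 to 61.7) for the 272 narrow peaks and 22.0% (20.1 to 24.1) for the 1602 peaks of 550 to 600 bp. The difference between these classes was smallest among the third of the list with the highest scores, where 78.9% of narrow peaks and 64.2% of peaks of 550 to 600 bp met a FLAG peak. All lists share the extract control, and its part in the overlap was not tested.

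**Figure D2:**
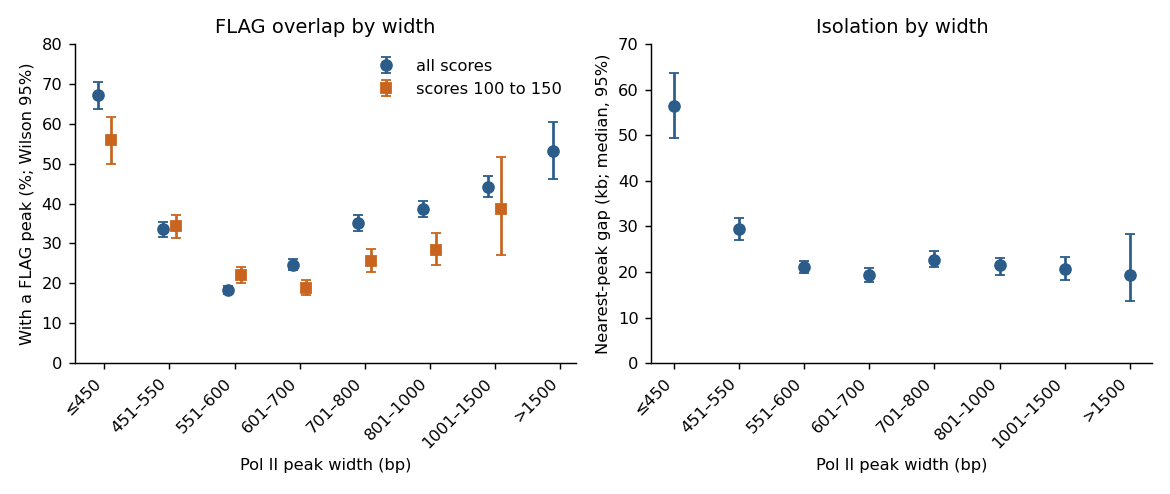
Left, share of Pol II peaks with a FLAG peak in either list by width class, over all scores and at scores of 100 to 150 (classes of at least 20 peaks), with Wilson 95% intervals; right, median gap to the nearest Pol II peak with its 95% interval. The narrowest class stands at 67.3% and 56.4 kb, and the class of 550 to 600 bp at 18.2% and 21.2 kb.

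Over the whole list 5386 Pol II peaks, or 30.5% (29.9 to 31.2), met a FLAG peak. The FoxP3+GATA1 list met 25.5%, the FoxP3 alone list 19.5%, and both together 14.4%. The share rose through every decile of the Pol II score, from 14.3% (12.8 to 16.1) in the lowest to 65.6% (63.4 to 67.8) in the highest. Higher-scoring Pol II peaks were also slightly more isolated, with a median nearest gap of 18.1 kb in the lowest decile and 27.1 kb in the highest.

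The highest-scoring Pol II peaks lay in few places. The 24 tied peaks fell into 10 regions when peaks up to 300 kb apart were joined. The largest held 8 of them on chromosome 1 between 170087902 and 170361806, with widths of 468 to 1225 bp. Chromosome 15 held 5 between 103143932 and 103165006, and chromosome X held 4 between 7163037 and 7170649. Positions are in the coordinates of the list, and its build is unsettled. Per the submitters' processing notes it is mm8, yet a chromosome 7 peak ends at 152430305, beyond the length generally known for mm8. Genes at these positions were therefore not named.

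Of the 10 tied regions, 3 were single wide Pol II peaks that no FLAG peak met. They lay at 39979489 to 39985945 on chromosome 17 (6457 bp, the widest peak of the list), at 24618206 to 24623187 on chromosome 1 (4982 bp) and at 22442527 to 22446218 on chromosome 2 (3692 bp). Each of the 21 other tied peaks met a FLAG peak in both lists. Their widths ran from 468 to 2801 bp, so the 3 without FLAG were also the 3 widest of the tied peaks.

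Below the tie, the next 10 Pol II peaks scored between 1693 and 2762. The highest 2 lay on chromosome 8, at 125956922 to 125958426 with a score of 2762 and at 125949617 to 125950226 with a score of 2663. Chromosome 1 followed at 173411246 to 173412234 with 2476. Of these 10 peaks, 8 met a FLAG peak in both lists. The exceptions were single Pol II peaks at 98299412 to 98300549 on chromosome 12, scoring 1801, and at 85266156 to 85267297 on chromosome 13, scoring 1693. The top score per chromosome ranged widely. It was 642.0 on chromosome 18, at 60964672 to 60967298, and 133.1 on chromosome Y, at 2652050 to 2652496.

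Among peaks over 2 kb, those with low scores lay mainly in 1 place, on chromosome 6. Between 47625186 and 47728782 the list held 11 Pol II peaks in 103.6 kb, which covered 31.9% of the interval. Their widths ran from 976 to 5090 bp, and 9 of the 41 peaks over 2 kb in the list lay here. Their scores were modest, from 50.29 to 338.7 with a median of 91.9. The peak of 5090 bp, at 47711944 to 47717033, scored 70.93, and that of 3982 bp, at 47629851 to 47633832, scored 50.29. Only 8 peaks over 2 kb in the whole list scored below 150, and 6 of them were in this interval. None of the 11 peaks met a FLAG peak. The interval was singled out after its values were seen. Elsewhere, the second-widest peak of the list, 5256 bp at 2999842 to 3005097 on chromosome 11, scored 125.5.

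Along the chromosomes Pol II peaks were mostly spread out, with some packed tightly. The median gap to the next peak was 48.9 kb (47.4 to 50.4), with quartiles of 15.4 and 135.2 kb. The shortest gap was 2 bp and 257 gaps were at most 200 bp, a distance shorter than any peak of the list. At the other extreme 392 gaps exceeded 1 Mb. Joining peaks across gaps of about 12 kb or less (exact setting with the processing) left 11126 single peaks, 63.1% of the list (62.4 to 63.8), with 1871 pairs and 450 triples. There were 308 clusters of 4 or more, which held 1414 peaks, or 8.02% (7.63 to 8.43). Among the 11467 peaks scoring at least 100 there were 72 such clusters, but removing peaks by any rule also breaks clusters.

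Clusters of 4 or more Pol II peaks were mostly gaps. Their median span was 18.9 kb, the longest was 66.6 kb, and peaks covered a median of 17.3% of the span. In the median cluster the top peak scored 1.68 times the cluster's median. A peak scoring at least 300 was present in 86 of the 308, and in 66 all members scored below 150. Median scores were 120.6 for single peaks, 113.0 in pairs, 112.3 in triples, 116.3 in clusters of 4 or 5 and 104.9 in clusters of 6 or more, with no steady order between pairs and clusters of 5. The median in clusters of 4 or more was 0.932 times that of single peaks (0.901 to 0.978). With a joining gap of 5 kb the ratio was 1.04 (0.973 to 1.10), a range that includes 1, so no order is read from it. Scores of neighbours were only weakly related. The Spearman correlation of adjacent peaks was 0.08 at gaps up to 200 bp, 0.12 from there to 1 kb, 0.11 from 1 to 5 kb and 0.01 at gaps over 50 kb. The median ratio of the higher to the lower score was 1.48 in the closest class and 1.55 in the farthest.

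The largest cluster held 12 Pol II peaks in 32.0 kb on chromosome 11, from 87546109 to 87578062. Its peaks were alike, with scores from 72.93 to 145.8 and widths from 541 to 893 bp, and 1 of them met a FLAG peak. A cluster of 10 on chromosome 13, from 23611364 to 23677949, was the longest at 66.6 kb, with scores from 51.92 to 277.1. Another cluster of 10, on chromosome 11 from 69792995 to 69838022, had scores from 63.04 to 141.7 and no FLAG peak. On chromosome 4, 9 peaks lay between 154574926 and 154597352, with scores from 50.67 to 169.7. None of these 4 clusters held a peak scoring 300 or more. Chromosome 11 held 46 of the 308 clusters, or 14.9%, and 8.50% of all peaks.

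The highest cluster medians belonged to the tied regions of chromosomes X, 1 and 15. All 5 members scored 3100 on chromosome 1, while the lowest member scored 137.8 on X and 190.0 on chromosome 15. Outside them, 4 peaks on chromosome 8 from 125949617 to 125967190 had a median of 1375 and ranged from 82.02 to 2762. At the low end, 4 peaks on chromosome 18 from 80800519 to 80820447 had a median of 54.4, with scores of 51.92 to 67.16 and widths of 582 to 594 bp.

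Over the whole list, the share of Pol II peaks with a FLAG peak was lower in larger clusters. It was 34.5% (33.6 to 35.4) for single peaks, 25.2% (23.8 to 26.6) in pairs, 22.7% (20.6 to 25.1) in triples and 16.9% (13.2 to 21.4) in clusters of 6 or more. Among the third of the list with the lowest scores it was 18.5% for single peaks and 4.32% (1.99 to 9.10) in clusters of 6 or more. Among the third with the highest scores the values were 54.1% and 44.6%, with intervals of 52.5 to 55.7 and 33.8 to 55.9 that overlap. Of the 308 clusters of 4 or more, 121 had no member with a FLAG peak and in 1 all members had one.

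The density of Pol II peaks varied between chromosomes. It was 12.6 peaks per Mb on chromosome 11, 9.57 on chromosome 19 and 9.22 on chromosome 17, against 6.86 over the genome, taking the span from the first to the last peak of any list. The lowest autosome was chromosome 3 with 5.28. Chromosome X had 306 peaks, or 1.88 per Mb, and chromosome Y had 4. Of the peaks on X, 88.9% (84.9 to 91.9) were single, against 50.0% (47.4 to 52.5) on chromosome 11. The median score differed little, from 111.7 to 121.7 across the 19 autosomes and 125.1 on X. The labels do not state the sex of the mice.

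Within chromosomes the peaks were concentrated in a small part of the sequence. Of 2589 bins of 1 Mb, 293 (11.3%) held no Pol II peak and the median bin held 4. The fullest 446 bins, 17.2% of all, held 50% of the peaks. The densest bin, 80 to 81 Mb on chromosome 10, held 64 peaks, and its neighbour from 79 Mb held 52. Chromosome 11 from 69 Mb followed with 53, chromosome 7 from 52 Mb with 51 and chromosome 8 from 73 Mb with 44. None of the peaks in these 5 bins scored above 738.3.

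Sparse bins held Pol II peaks of a different make-up. In bins with 1 to 4 peaks the median score was 131.2 and 46.9% (44.9 to 48.9) met a FLAG peak. In bins with 40 or more the median score was 108.7 and the share 19.8% (16.3 to 23.9). The median width ran the other way, from 593 bp in the sparsest bins to 630 bp in the densest.

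**Figure D3:**
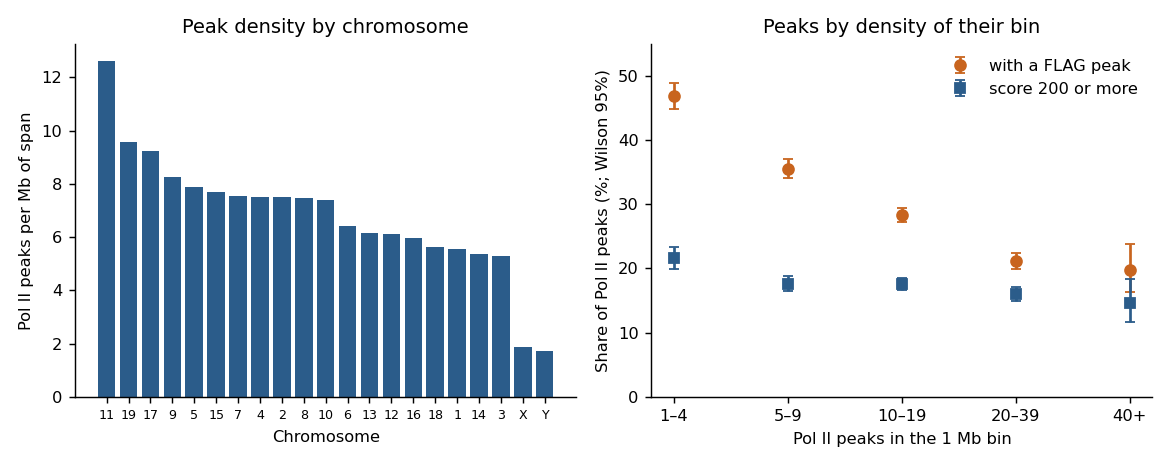
Left, Pol II peaks per Mb of span on each chromosome; right, share of Pol II peaks with a FLAG peak and share scoring 200 or more, by the number of Pol II peaks in their 1 Mb bin, with Wilson 95% intervals. Density falls from 12.6 on chromosome 11 to 1.88 on X and 1.72 on Y, which has 4 peaks, and the FLAG share falls from 46.9% in the sparsest bins to 19.8% in the densest.

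The longest stretch with no Pol II peak ran for 7.72 Mb on chromosome 7, from 39056201 to 46772793, and 1 FLAG peak lay inside it. The second ran for 6.55 Mb on X, from 23586068 to 30134652, with no peak of any list. Of 93 stretches over 2 Mb, 14 were on X. Whether reads can be placed in these stretches was not analysed here. The most isolated peak, at 61738989 to 61739582 on X, was 3.03 Mb from its nearest neighbour and scored 203.1. The next 4 lay on chromosomes 5, 15, 5 and 5, from 2.62 to 2.10 Mb from a neighbour, with scores from 111.8 to 402.9. All 5 met a FLAG peak of the FoxP3+GATA1 list, which met 25.5% of the whole Pol II list. In bins with 1 to 4 Pol II peaks, 46.9% of peaks met a FLAG peak of either list. The seventh most isolated peak, at 58163237 to 58163713 on chromosome 5, also met the FoxP3+GATA1 list. The sixth, at 19573336 to 19573905 on chromosome 15, and the eighth, at 10774633 to 10775148 on chromosome 7, met no FLAG peak.

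Some high-scoring Pol II peaks had lower neighbours at recurring distances. Among pairs in which at least 1 peak scored 300 or more, 51 had centres 3.40 to 3.75 kb apart, against 12 and 16 in the windows of equal size just before and after. At 5.25 to 5.65 kb there were 41 pairs, against 17 and 19. At 7.80 to 8.30 kb there were 23, against 24 and 25, which is no excess. Pairs without such a peak showed no comparable step, with 131 against 119 and 117 in the first window and 124 against 145 and 128 in the second. The windows were chosen after the distances had been seen.

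**Figure D4:**
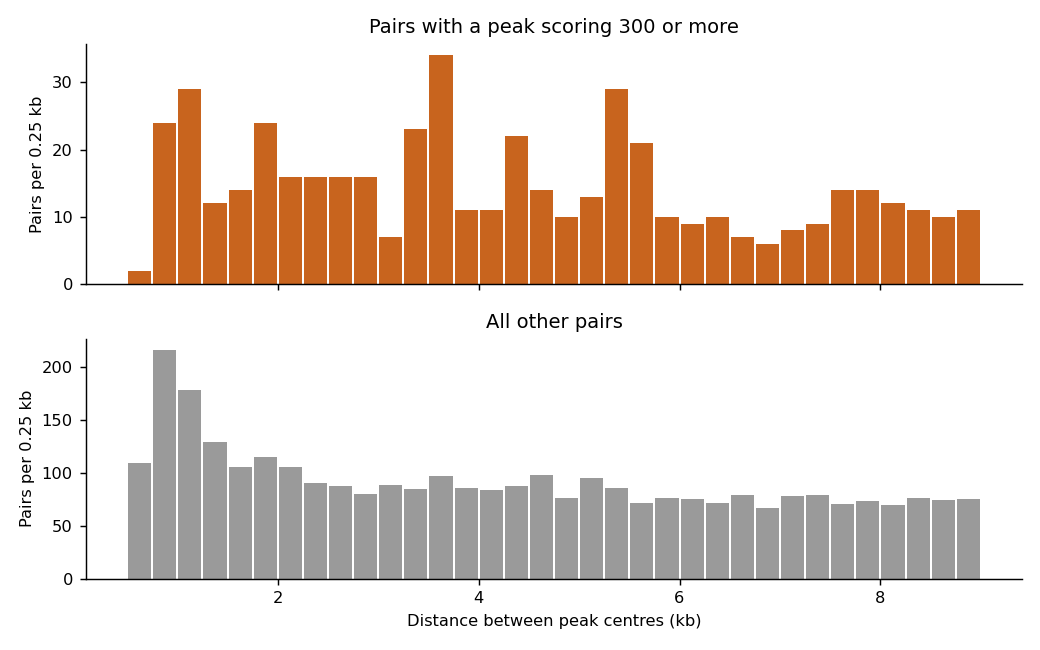
Number of pairs of Pol II peaks per 0.25 kb of distance between their centres, above for pairs with a peak scoring 300 or more and below for all other pairs. The upper panel has raised bars near 3.6 and 5.4 kb that the lower panel lacks; the first window holds 51 pairs and the second 41.

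In 22 places, on 13 chromosomes, a leading Pol II peak scoring 300 to 3000 had lower peaks on 1 side in at least 2 of the 3 windows. The leading peaks scored 302.1 to 1603, with a median of 677.3. The neighbour at the first distance was present in 21 places, at a median of 3.58 kb (range 3.43 to 3.74), with scores of 77.95 to 502.6. The neighbour at the second distance was present in 20, at a median of 5.45 kb (range 5.27 to 5.63), with scores of 59.25 to 314.1. A neighbour in the last window was present in 12, and 9 places had all 3. The order ran towards higher coordinates in 9 places and towards lower in 13.

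FLAG overlap followed the place of a Pol II peak within these sets. The leading peak met a FLAG peak in 21 of 22 places. The neighbour at 3.58 kb met one in 0 of 21, and the neighbour at 5.45 kb in 19 of 20. In the last window 6 of 12 did. For comparison, 30.5% of all Pol II peaks and 65.6% of the highest decile met a FLAG peak. Pairs of these sets, 21 at the first distance and 20 at the second, are included in the counts over all pairs with a peak scoring 300 or more. Those counts are therefore not separate from the sets. Over all such pairs the lower peak met FLAG in 7 of 51 at the first distance and in 30 of 41 at the second. The higher peak did in 48 of 51 and 35 of 41. In the windows just before and after the first distance the lower peak did in 2 of 12 and 5 of 16 pairs. Around the second the lower peak did in 4 of 17 and 9 of 19. The higher peak did in 8 of 12 and 10 of 16 around the first, and in 13 of 17 and 14 of 19 around the second. FLAG overlap was not used to find the sets. The 21 peaks without FLAG had a median score of 172.9 and the 20 at the next distance 161.9, so the medians lay close together while the FLAG overlap did not.

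Single sets show the pattern. On chromosome 5, between 110330323 and 110336854, the leading peak scored 1603, the neighbour at 3.53 kb 379.0 without FLAG, and that at 5.50 kb 135.7 with FLAG. On chromosome 13, between 67985375 and 67994672, a leading peak of 1224 was followed at 3.47 kb by 137.4 without FLAG, at 5.44 kb by 122.3 with FLAG and at 7.94 kb by 257.9 with FLAG. The lowest leading score, 302.1, was on chromosome 5 between 145431017 and 145439770, where the neighbours at 3.46, 5.33 and 7.96 kb scored 256.9, 188.8 and 157.2. Its neighbour at 5.33 kb was the only one of these 3 with FLAG. What sequence lies at these places, and how reads matching several places were treated, was not analysed here.

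**Figure D5:**
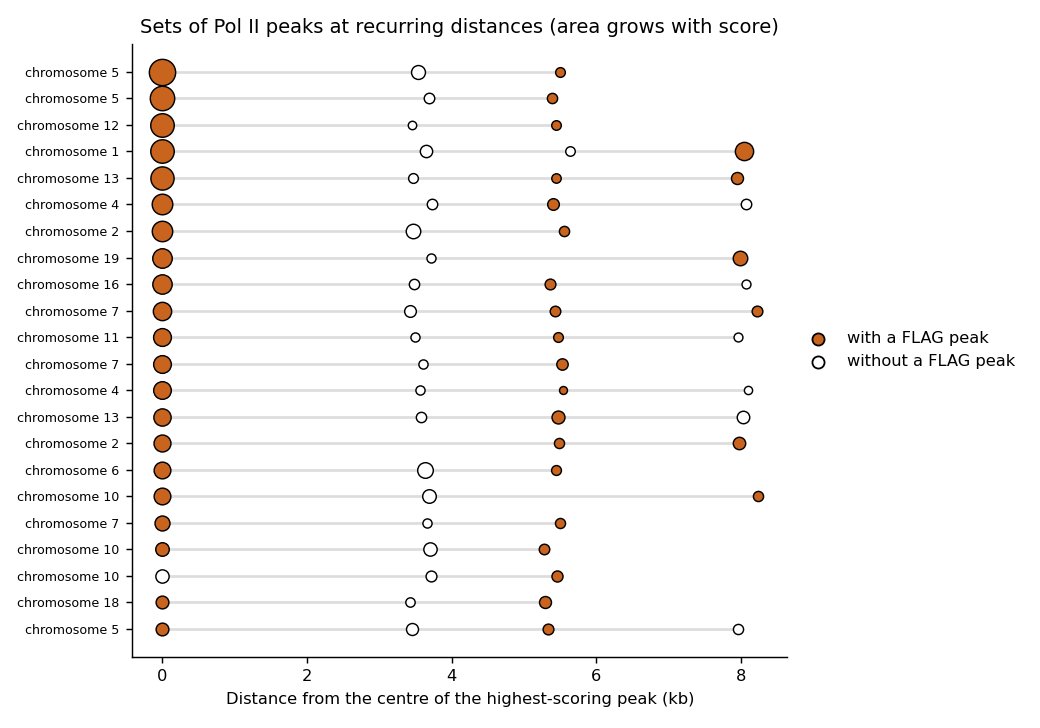
The 22 sets, 1 per line and labelled by chromosome, ordered by the score of the leading peak at 0 kb, with lower Pol II peaks at their distance in kb from its centre; point area grows with score and filled points met a FLAG peak. Open points line up near 3.58 kb and filled ones near 5.45 kb.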

How the data were processed

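Pol II, FLAG-FoxP3 with GATA1, FLAG-FoxP3 alone and whole cell extract were sequenced as 1 library each. The tools were FastQC, Bowtie and MACS 1.4.0rc2 and the build mm8, per the submitters' processing notes, with no setting or threshold given. Each ChIP library has 1 list, in which the authors deposited a score for every peak, used here only to describe and rank peaks within the list. By the names of the lists, the Pol II lane 4 was called over the extract lane 5. The lists hold no read counts.

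Starts are printed with a first base of 1. No annotation of a matching build was used, so the planned comparisons with annotated start sites, gene lists, cell type markers and sequences were not run, and the labelled cell type was not checked against markers. Widths, gaps, clusters (gaps of at most 12.5 kb), 1 Mb bins and overlaps (at least 1 bp) were computed with pandas 2.3.3, numpy 2.4.6 and scipy 1.17.1 under Python 3.11.15. Functions were tested on simulated data, and bedtools 2.31.1 gave equal counts of overlapping peaks and of clusters. Intervals are Wilson 95% for shares and order-statistic 95% for medians, and cover counting over peaks only, not variation between cultures. The range given with a ratio of median scores divides opposite ends of the intervals of both medians, and is not itself a 95% interval. Named places were the largest, highest, widest, densest, most isolated and highest and lowest clustered by rule. The members, lists and rules were chosen with earlier results of these data known. Width classes, the chromosome 6 interval and the distance windows were chosen after seeing the values.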

Additional observations from a re-analysis of the deposited data

How the results depend on the processing

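No paired analysis was possible because there is only 1 library in a group and no test was made. Minimum scores of 70, 100 and 150 left 16243, 11467 and 5603 peaks. They gave median widths of 618, 677 and 826 bp, median gaps of 54726, 86008 and 192030 bp, and single shares of 65.5%, 74.7% and 87.0%. Shares in clusters of 4 or more were then 6.59%, 2.68% and 1.12%, FLAG shares 32.0%, 38.5% and 51.4%, and peaks per Mb on the densest chromosome 11.5, 7.81 and 3.55. At minimum scores of 100 and 150 there were 72 and 15 clusters of 4 or more, since fewer peaks were joined. The Spearman correlation of width and score was 0.481 and 0.518 at 70 and 100. Cluster gaps of 5, 25 and 50 kb gave 101, 627 and 1058 clusters of 4 or more, holding 2.48%, 18.9% and 39.04% of peaks, with 78.0%, 47.7% and 30.1% single.

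The median score in clusters of 4 or more, divided by that of single peaks, was 0.932. It was 1.04 (0.973 to 1.10) at a gap of 5 kb, a range that includes 1, and 0.892 at 50 kb. Joining peaks across 500 bp gave a median width of 614 bp, a median gap of 51808 bp, 66.7% single and 6.42% in clusters. Peaks over 450 bp alone had a median width of 617 bp, a FLAG share of 29.0% and a width and score correlation of 0.542. Without chromosome 11 the median gap was 51484 bp, 64.3% were single, 7.33% were in clusters, and the densest chromosome had 9.57 peaks per Mb. The FLAG share was 29.5% for an overlap of at least 50% of the shorter peak, 25.5% with the FoxP3+GATA1 list and 19.5% with the FoxP3 alone list. Removing scores of 3000 or more moved none of the values above beyond its interval or, for counts, by over 1.5 times. Nor did removing X and Y, which was not run for the score ratio or the correlation.

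Chosen after seeing the data, a leading score of at least 200 or 500 gave 24 or 17 spaced sets, and windows moved out or in by 0.5 kb gave 0. The windows had been set on distances seen in this same list, so the moved windows cannot test whether the distances recur. The FLAG share of narrow peaks exceeded that of peaks of 550 to 600 bp by 49.0 points, and by 14.7 to 47.5 points with each FLAG list alone or within the low, middle or high scores. With 1 library per side and unknown depth, no value could be set against the spread between cultures.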
